A study of Mus musculus with 6 samples.

Results

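Kiss1, Tac2, Tacr3, Gnrh1, Esr1 and Pgr were followed in the hypothalamus of obese male mice given GSK-J4 or vehicle. These 6 genes form the upper part of the reproductive axis. They were chosen by the GSK-J4 and vehicle signals of these same arrays, so the differences between the groups are given as a description, with no p-value for any of them. All probes that carry one of these names were used, which gave 17 of 56605 probes, for 6 of the 37074 gene names of the array.

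Hypothalamic RNA of male C57BL/6J mice with diet-induced obesity (DIO) was hybridized to 6 one-colour Agilent SurePrint G3 mouse arrays. Both groups were fed a diet with 60 kcal% fat for some months, and mice on a standard diet are not among the arrays analysed here. The 3 vehicle arrays are the 0 mg per kg dose and the 3 GSK-J4 arrays the 30 mg per kg dose, numbered as replicates in the labels. The methods count an individual mouse as an in vivo replicate, but the labels do not say whether each array came from a different mouse. GSK-J4 is an inhibitor of the Kdm6 (Utx and Jmjd3) demethylases, which remove methyl groups from lysine 27 of histone H3. Per the methods it was injected into the abdominal cavity daily, in dilute dimethyl sulfoxide, and the tissue was taken in the light phase. The series record gives day 4 of exposure for the arrays, whereas the methods describe a longer course of injections. The age of the mice at the array time was not given in the labels.

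Gonadotropin releasing hormone (GnRH), the product of Gnrh1, is secreted in pulses from the hypothalamus and drives the pituitary gonadotropins. Kisspeptin from Kiss1 acts on its receptor Kiss1r on GnRH neurons. In the arcuate nucleus, kisspeptin is made by neurons that also make neurokinin B, which mouse Tac2 encodes, and dynorphin from Pdyn. Neurokinin B excites these neurons through its receptor Tacr3, and dynorphin restrains them. Estrogen receptor alpha (Esr1) and the progesterone receptor (Pgr), which estrogen induces, carry the feedback of gonadal steroids to these neurons.

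The arrays differed in brightness between the groups. The 75th percentile of the scanner signal lay between 787.9 and 915.8 on the vehicle arrays and between 407.1 and 461.3 on the GSK-J4 arrays, and 62.78% to 63.58% of probes carried the scanner flag for a signal well above background, written below as flagged above background, in vehicle against 57.71% to 58.67% in GSK-J4. All vehicle arrays were on 1 slide and in 1 scan and all GSK-J4 arrays on another, so slide, scan and treatment cannot be told apart. The deposited log2 values are quantile normalized, which gives every array the same distribution, and changes on that scale are changes relative to the other probes. Scanner signals before normalization are given beside them. The array number limits the precision of every value.

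The tissue label was set against marker genes. Of 13 hypothalamic peptide genes, 10 had a probe flagged above background on all 3 arrays of a group, among them Npy, Pomc, Oxt, Hcrt and Crh. The exceptions were Avp, Pmch and Trh, which encode vasopressin, melanin-concentrating hormone and thyrotropin-releasing hormone. They were flagged above background on 3 of 6 arrays each. On the log2 scale the vehicle means were 11.52 for Npy, 8.49 for Crh, 7.94 for Pomc, 5.7 for Oxt and 4.76 for Hcrt. Oxt and Hcrt were thus dim, as the lowest flagged value of an array lay between 3.79 and 4.64. The probes of Nkx2-1, Isl1 and Otp, transcription factors of hypothalamic neurons, were not flagged above background on any array. A probe of Tbx3 and 1 of the 2 probes of Nr5a1, also hypothalamic transcription factors, were flagged on all 6. Their vehicle means were 8.96 and 6.28. Nkx2-1 and Nr5a1 were taken from the lists of the reproductive axis given below, not from the marker lists. Neurod6 and Tbr1, transcription factors of cortical and hippocampal neurons, were flagged on all 6 arrays, with vehicle means of 12.39 and 12.43. In the same list of forebrain genes outside the hypothalamus, Drd2, a dopamine receptor of the striatum, was flagged on none. Drd1, Adora2a and Ppp1r1b, also striatal genes of that list, were flagged on all 6. Of the pituitary hormone genes Gh, Prl, Cga, Fshb and Tshb, none passed the filter, and Tshb alone of these was flagged above background on 1 array, whereas Lhb, which encodes the beta subunit of luteinizing hormone, was flagged on all 6. Vehicle 1 stood apart in genes of the choroid plexus, the tissue that secretes cerebrospinal fluid. The summed level of 9 such genes was 16.8 on the log2 scale on vehicle 1 and lay between 11.47 and 13.6 on the other arrays.

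A probe was kept for comparison when the 3 arrays of vehicle, of GSK-J4 or of both carried the flag, as 34444 of 56605 probes did. Of the 17 member probes 9 were kept, at least 1 for each of the 6 genes. Of the 8 others, 5 were not flagged above background on any array and 3 were so on exactly 1 array, which holds for 3.92% of all probes of the array.

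Kiss1 had 2 probes on chromosome 1 of mm9, both on the plus strand. The kept probe, A_55_P2069765, lies at chr1:135226240-135226299 on the transcript NM_178260, and the other, A_52_P237176, lies 262 bases upstream at chr1:135225978-135226037. The stretch of the kept probe shown here, bases 28 to 57 of its 60 counted from the 5′ end, holds the polyadenylation hexamer AATAAA in capitals, the kind of signal that lies near the end of most messenger RNAs and after which the polyA tail is added. Tac2 has a single probe, A_66_P116054 at chr10:127168740-127168799 on the plus strand, and its bases 24 to 53 hold the variant hexamer ATTAAA, also in capitals.
Kiss1 A_55_P2069765: ctagacttgtgcAATAAAagcaatgctgcc
Tac2 A_66_P116054: gtagtgtcctgcATTAAAaatgctatctct
On the strand of the probe, AATAAA was found in 9.77% of all 56605 probes and ATTAAA in 3.86%, and on the opposite strand in 3.85% and 2.68%. Among the member probes, Pgr A_55_P1985925 also holds ATTAAA. It lies 21545 bases upstream of the Pgr probe farthest 3′ and was not flagged above background on any array. The 60 bases of a probe are the window searched, and a match is a description of the letters.

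The Kiss1 probe A_55_P2069765 gave log2 values of 4.63, 3.67 and 4.41 on vehicle arrays 1 to 3 and of 5.46, 4.97 and 5.34 on GSK-J4 arrays 1 to 3. The lowest GSK-J4 value lay above the highest vehicle value, so the groups did not overlap. The difference of the means was 1.02 ± 0.28 (SE, n = 3 per group), a fold of 2.03. The signal was dim, however. The scanner read 34.6, 19.3 and 29.1 in vehicle and 31.1, 22.9 and 26 in GSK-J4, against a local background of 28 to 46.5 that had been subtracted, and the probe was flagged above background on 2 of the 3 vehicle arrays and on all 3 GSK-J4 arrays, so it passed the filter through GSK-J4 alone. The lowest flagged value of an array lay between 3.79 and 4.64, so vehicle 2 was below the detection limit, and the fold rests on a vehicle mean that was in part not above background. Before normalization the Kiss1 signals of both groups overlapped and their means were 27.7 and 26.7.

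The second Kiss1 probe, A_52_P237176, was flagged above background on vehicle 1 alone. Its log2 values were 4.93, 3.4 and 3.07 in vehicle and 4.16, 3.15 and 4.53 in GSK-J4. The groups overlapped on this probe, which is rich in G and C (65% of its bases against 50% of the kept probe's). The 2 probes of Kiss1 therefore did not give the same picture.

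Tac2 was flagged above background on all 6 arrays. Its log2 values were 9.73, 9.96 and 9.99 in vehicle and 10.51, 10.16 and 10.32 in GSK-J4. All 3 GSK-J4 values lay above the 3 vehicle values, with a difference of 0.44 ± 0.12 (SE, n = 3 per group), a fold of 1.35. The scanner signals ran the other way, from 1110 to 1490 in vehicle and from 877 to 1150 in GSK-J4, and overlapped. Their ratio, 1.34 with vehicle above, was smaller than the 1.83 found for the median kept probe.

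Gnrh1 had 2 probes. The kept one, A_55_P2503851 at chr14:68367373-68367432 on the plus strand, gave log2 values of 7.79, 7.67 and 7.7 in vehicle and of 6.94, 7.37 and 7.67 in GSK-J4. The vehicle arrays lay close together (SD 0.06) and the GSK-J4 arrays were spread (SD 0.37), with GSK-J4 3 at the vehicle level. The difference was -0.39 ± 0.19 (SE, n = 3 per group) and the groups overlapped. In the scanner signals they did not, with 307, 317 and 283 in vehicle and 87, 121 and 133 in GSK-J4. The vehicle mean was 2.66 times the GSK-J4 mean, the largest such ratio among the kept member probes and above the 1.83 of the median kept probe. The other Gnrh1 probe, A_55_P2095716, assigned to the predicted transcript XM_006518564, lies 3011 bases upstream and was not flagged above background on any array.

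Tacr3, the receptor of neurokinin B, had 1 probe, A_52_P676947 at chr3:134596904-134596963 on the plus strand, flagged above background on all 6 arrays. Its log2 values were 4.93, 6.12 and 6.91 in vehicle and 7.17, 6.52 and 5.95 in GSK-J4. The spread within the groups (SD 0.99 and 0.61) was as large as the difference of 0.56 ± 0.56 (SE, n = 3 per group), and the groups overlapped. Vehicle 1, the array with the choroid plexus signal, was the lowest of the 6, and without it the difference was 0.03. The part of that tissue in the Tacr3 value was not tested.

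**Figure D1:**
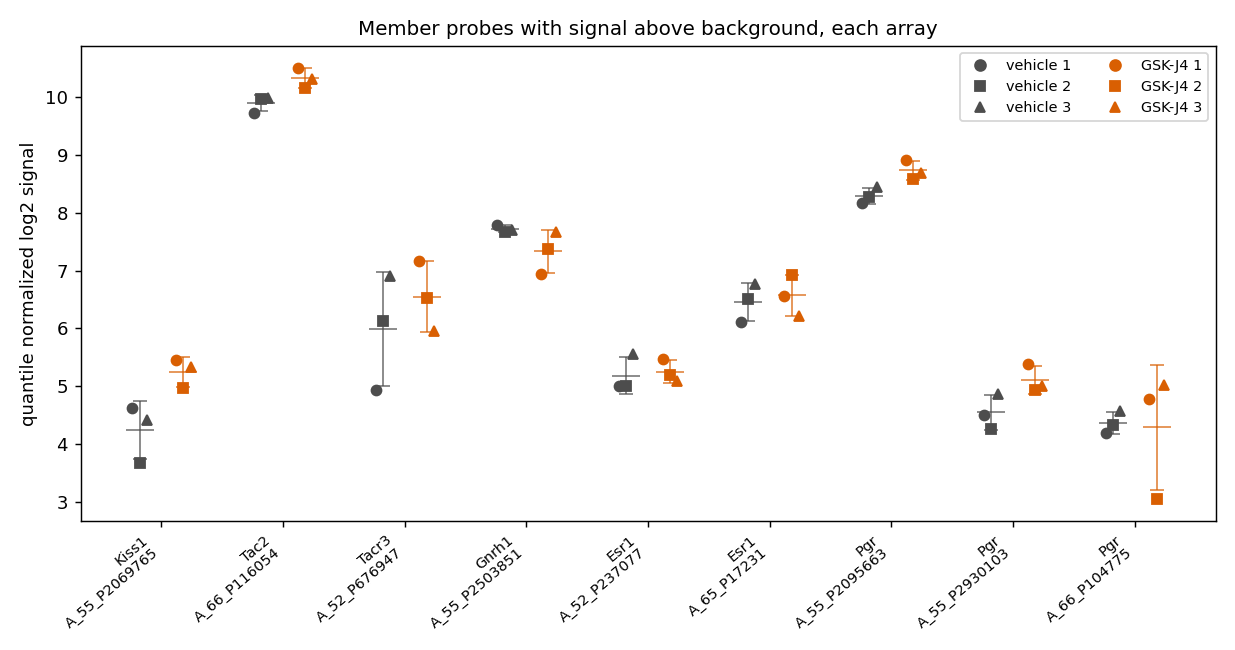
Quantile normalized log2 signal of the 9 kept member probes (y axis) for each probe (x axis), with vehicle arrays in grey and GSK-J4 arrays in orange, symbols for replicate numbers, and bars for the mean and SD of 3 arrays. The groups do not overlap for Kiss1 A_55_P2069765, Tac2 A_66_P116054 and the Pgr probes A_55_P2095663 and A_55_P2930103, and they overlap for the other 5 probes.

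The progesterone receptor gene Pgr had 4 probes on chromosome 9. A_55_P2095663 at chr9:8968492-8968551 is the one farthest 3′ on the plus strand. A_55_P2930103, at chr9:8903618-8903677 and 64874 bases upstream, is shown whole because its bases code for the beginning of the DNA-binding domain. With this domain the receptor contacts its target genes. The probe reads without a stop codon in 1 of its 3 frames, as does each of the other Pgr probes, so an open frame does not set it apart.
Pgr A_55_P2930103: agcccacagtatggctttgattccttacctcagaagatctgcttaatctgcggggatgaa

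The 3′ Pgr probe gave log2 values of 8.16, 8.28 and 8.44 in vehicle and of 8.91, 8.59 and 8.68 in GSK-J4, a difference of 0.43 ± 0.12 (SE, n = 3 per group). The DNA-binding domain probe gave 4.51, 4.27 and 4.87 in vehicle and 5.38, 4.94 and 5 in GSK-J4, a difference of 0.56 ± 0.2 (SE, n = 3 per group). Both probes were flagged above background on all 6 arrays, and on both every GSK-J4 array lay above every vehicle array. Their folds were 1.35 and 1.47. Before normalization both ran the other way without overlap, the 3′ probe with signals of 394, 479 and 464 in vehicle and 364, 286 and 274 in GSK-J4. The DNA-binding domain probe was dim, with signals of 31.8, 29.7 and 40.4 in vehicle and 29.6, 22.5 and 20.7 in GSK-J4. Its local background was 26.5 to 44. Its log2 values of 4.51 and 4.27 in vehicle lay within 3.79 to 4.64, the range of the lowest flagged value of an array.

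The other 2 Pgr probes gave no such pattern. A_66_P104775 at chr9:8898921-8898980 lies on the minus strand, opposite to the other 3, and carries the Pgr name through the cDNA record BC059021. It was at 4.2, 4.33 and 4.58 in vehicle and at 4.78, 3.05 and 5.03 in GSK-J4. GSK-J4 2 was the lowest of all 6 arrays on it and the other 2 GSK-J4 arrays the highest, so that the difference was -0.08 ± 0.53 (SE, n = 3 per group). The probe was flagged above background on 3 vehicle and 2 GSK-J4 arrays, so it passed the filter through vehicle alone. The value of GSK-J4 2 lay below the detection limit of 3.79 to 4.64, and the difference rests in part on it. A_55_P1985925, on the transcript ENSMUST00000151080, was not flagged above background on any array, with values from 2.8 to 4.06.

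The estrogen receptor gene Esr1 had 7 probes, spread over 336058 bases of chromosome 10 and all on the minus strand of mm9. Only the 2 farthest 3′ were flagged above background on all 6 arrays. A_65_P17231 at chr10:5341167-5341226 gave log2 values of 6.11, 6.5 and 6.76 in vehicle and 6.56, 6.93 and 6.22 in GSK-J4. A_52_P237077, 1889 bases upstream of it, gave 5, 5 and 5.55 in vehicle and 5.47, 5.19 and 5.09 in GSK-J4. The groups overlapped on both, with differences of 0.11 ± 0.24 and 0.07 ± 0.19 (SE, n = 3 per group).

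Of the 5 Esr1 probes further upstream, each lay near the lowest values of the array on most or all arrays. A_51_P474658 and A_66_P138072 stayed between 1.85 and 1.94 on all 6 arrays. The other 3 each gave a signal on a single array. A_55_P2030883 at chr10:5489352-5489411 is shown whole, since it codes for a stretch of the domain that binds estrogen. It reads without a stop codon in 1 frame, but so do other Esr1 probes, among them A_51_P474658 and A_66_P138072.
Esr1 A_55_P2030883: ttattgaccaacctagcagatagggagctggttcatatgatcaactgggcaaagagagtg
On GSK-J4 2 it had a log2 value of 8.28 and a scanner signal of 228, and on the other 5 arrays log2 values of 1.95 to 2.85 and signals of 3.22 to 9.8. Against the detection limit of the vehicle arrays the GSK-J4 mean was at least 1.18-fold higher, which rests on that 1 of 3 arrays. The 2 kept Esr1 probes were not raised on GSK-J4 2 to a like extent, at 6.93 and 5.19. A_55_P2899365 was at 4.87 on vehicle 1 and between 2.1 and 2.67 elsewhere, and A_55_P2716924 was at 4.14 on GSK-J4 3, without that flag, and between 1.87 and 1.91 elsewhere. Each of these probes has 1 spot per array, and none of the spots had an outlier flag.

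**Figure D2:**
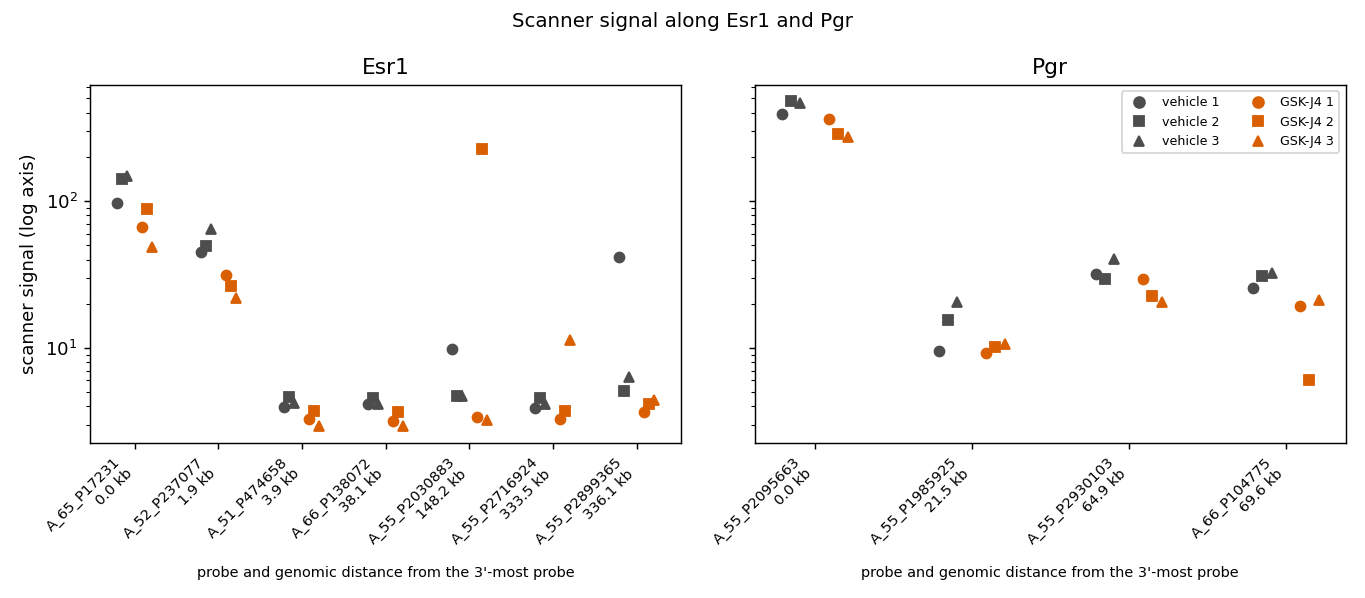
Scanner signal before normalization (y axis, log axis) of every probe of Esr1 (left) and Pgr (right) on each array, ordered from the 3′-most probe upstream with the genomic distance in kilobases under its name (x axis); each point is 1 array. Beyond the 2 probes farthest 3′, Esr1 signals lie near the bottom of the scale except for single arrays, 228 on GSK-J4 2 being the highest.

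Across the kept member probes the median difference was 0.43, against 0.02 over all 34444 kept probes. Of the 9, 7 were higher and 2 lower in GSK-J4. With limma, adjusted over the 34444 kept probes and called at 0.05 or less, 0 of the 9 were called, where 8.39% of kept probes were called higher and 8.42% lower. At an unadjusted limma p of at most 0.05 the count was 4, all higher, where 36.5% of kept probes passed in either direction. The groups did not overlap in 4 of the 9, where this held for 45.6% of kept probes. The members were chosen from this contrast, so nothing is read from these counts. Without vehicle 1 the median over the 9 was 0.03, and leaving out any other single array gave 0.25 to 0.52. Over the same 6 settings the differences ran from 0.74 to 1.22 for Kiss1, from 0.35 to 0.52 for Tac2, from 0.34 to 0.5 for Pgr A_55_P2095663, from 0.03 to 1.02 for Tacr3 and from -0.57 to -0.2 for Gnrh1.

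Which members are higher depends on the scaling between arrays. With no scaling at all, the log2 scanner signal of the median kept probe was 0.88 lower in GSK-J4 (a difference of -0.88), and all 9 member probes were below 0. Relative to that shift, Kiss1 (-0.02), Tac2 (-0.42), Tacr3 (-0.5) and the Pgr probes A_55_P2095663 (-0.54) and A_55_P2930103 (-0.49) lay above the median probe. Gnrh1 (-1.43), both Esr1 probes (-0.99 and -0.94) and Pgr A_66_P104775 (-1.13) lay below it. With each array scaled to its 75th percentile 5 of the 9 were higher, and 8 were with normexp, a model-based background correction, or with the trend of the signal on the share of G and C in the probe taken out (the GC trend). Kiss1 went from 1.02 in the deposited values to 0.33 with normexp and an offset of 50, which draws dim signals together.

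**Figure D3:**
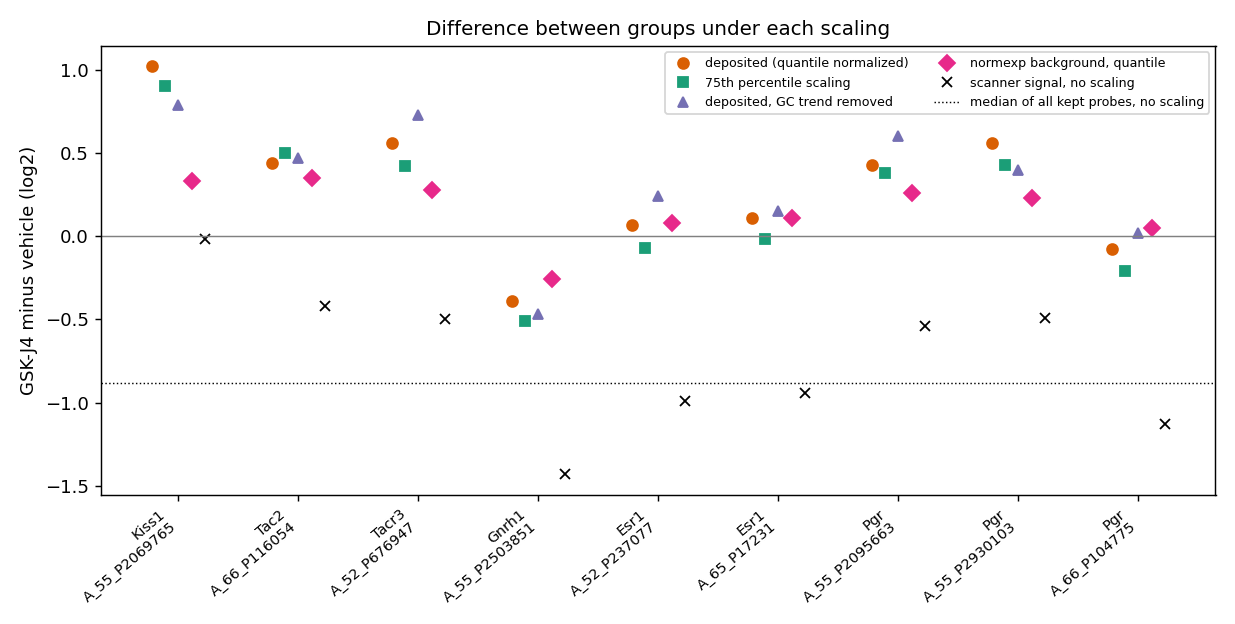
GSK-J4 minus vehicle difference of log2 signal (y axis) of the 9 kept member probes (x axis) in the deposited values and under 4 other ways of scaling the arrays; each point is the difference of 2 means of 3 arrays. Kiss1, Tac2, Tacr3 and 2 Pgr probes stay above 0 under the 4 normalized settings, Gnrh1 stays below 0, the Esr1 probes lie near 0, and without scaling every probe lies below 0, the dotted line at -0.88 being the median of all kept probes.

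The array to array variation was compared among the members by taking each value's deviation from its group mean over the 6 arrays. Tac2 and the 3′ Pgr probe moved most alike, with a Pearson r of 0.94. Tacr3 followed Pgr (r = 0.82), Tac2 (r = 0.75) and Esr1 A_65_P17231 (r = 0.75). Gnrh1 ran against all 4, with r from -0.65 to -0.37. These values are a description over 6 arrays that share their normalization. Among 30961 probes flagged above background on all 6 arrays, 317 had an r above 0.95 with Tac2, 738 with Gnrh1, 238 with Pgr, 202 with Tacr3 and 145 with Esr1. The 3 genes most like Tac2 were Pde4d, Gm19410 and Zfp37, with r from 0.9984 to 0.9989. For Gnrh1 they were Taf1, Sppl2a and Ltbp4, for Tacr3 5430431A17Rik, Kat5 and St8sia3, for Esr1 Pyurf, Schip1 and E030003E18Rik, and for Pgr Thtpa, Cog6 and Rgs16, with r from 0.9943 to 0.9999. Kiss1 was not compared in this way since it was not flagged above background on all 6 arrays.

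Other genes of the reproductive axis were counted in 6 lists with 97 genes, of which 84 had a kept probe. Taking the kept probe with the highest mean for each gene, 4 genes rose and 4 fell at an limma adjusted p of at most 0.05, where 8.6% of all 22117 genes rose and 7.56% fell. The median difference over the 84 genes was -0.03, against 0.04 over all genes. Without any 1 of the vehicle arrays both counts were 0, and of all kept probes 1 or 2 were then called higher and 4 to 12 lower, and of the 12 list and marker genes named below as called, 0 were then called, with limma adjusted p from 0.059 to 0.11. Without GSK-J4 1, 4 of the 12 were called.

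In the signalling list, Kiss1r, the kisspeptin receptor, had a difference of 0.36 ± 0.13 (SE, n = 3 per group) with an limma adjusted p of 0.1. Pdyn, the dynorphin precursor, had a difference of -0.28 ± 0.24 with an adjusted p of 0.43. The GnRH receptor Gnrhr and the RFamide peptide Npvf were not flagged above background on any array. The gene that passed was Mme, which encodes neprilysin, a peptidase that degrades tachykinins. Its values were 14.03, 14.17 and 14.39 in vehicle and 13.25, 13.54 and 13.43 in GSK-J4, a fall of -0.78 ± 0.13 with an limma adjusted p of 0.022. The groups did not overlap on that probe, A_55_P2102738, but the other kept Mme probes had differences of 0.09 and -0.2 with limma adjusted p of 0.57 and 0.65. The levels disagree as well, with vehicle means of 14.19 on A_55_P2102738 and of 6.77 and 5.37 on the other kept probes. Whether the bright probe measures Mme was not tested. Of the 9 genes of that list with a kept probe, 0 were called higher.

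Among steroid receptors and enzymes 16 of 17 genes were kept, and aromatase (Cyp19a1), which makes estrogen from testosterone, was not flagged above background on any array. Sts, the steroid sulfatase that frees steroids from their sulfates, rose by 0.57 ± 0.12 (limma adjusted p = 0.034), with a difference of 0.17 once the GC trend was removed (adjusted p = 0.36). Esr2, estrogen receptor beta, had a difference of -0.7 ± 0.09 (limma adjusted p = 0.017), and Hsd3b2, a hydroxysteroid dehydrogenase, one of -1.27 ± 0.11 (limma adjusted p = 0.012). For both, the groups were far apart on the probe that counted, 11.58 to 11.8 against 10.93 to 11.09 for Esr2. The other Esr2 probe and the other 2 Hsd3b2 probes were, however, not flagged above background on any array, so the probes of these genes disagree, and whether the bright probes of Esr2 and Hsd3b2, counted among the 4 that fell, measure these genes was not tested. Prlr, the prolactin receptor, was at 11.52 on vehicle 1 and between 7.41 and 8.21 on the other 5 arrays, with the same array high as for the choroid plexus genes.

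Of 14 coregulators and chaperones of steroid receptors, all kept, Fkbp4 and Pelp1 rose. Fkbp4, a co-chaperone of steroid receptors, rose by 0.48 ± 0.09 (limma adjusted p = 0.025), and its other probes differed by 0.19 and 0.48. Pelp1, a coregulator of estrogen receptors, rose by 0.36 ± 0.07 (limma adjusted p = 0.026), and its other probe by 0.68. With the GC trend removed the first of these was 0.13 (adjusted p = 0.25). The values of Pelp1 were 10.11, 10.17 and 10.09 in vehicle and 10.48, 10.52 and 10.46 in GSK-J4, without overlap.

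In the list of regulators of puberty timing and of the Kiss1 promoter 13 of 14 genes were kept, and 1 rose. This was Ezh2, the methyltransferase that places the histone H3 lysine 27 mark, with a difference of 0.55 ± 0.1 (limma adjusted p = 0.026). Only 1 of the 5 Ezh2 probes passed, and the other 4 had differences from -0.02 to 0.49. Among 22 of 24 genes of GnRH neuron development Otud4, a deubiquitinase, fell, with a difference of -0.59 ± 0.08 (limma adjusted p = 0.017). Of 10 of 13 other genes of estrogen-responsive and kisspeptin neurons none passed, the differences running from -0.3 (Nr5a1, limma adjusted p = 0.55) to 0.56 (Gal, galanin, limma adjusted p = 0.07).

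**Figure D4:**
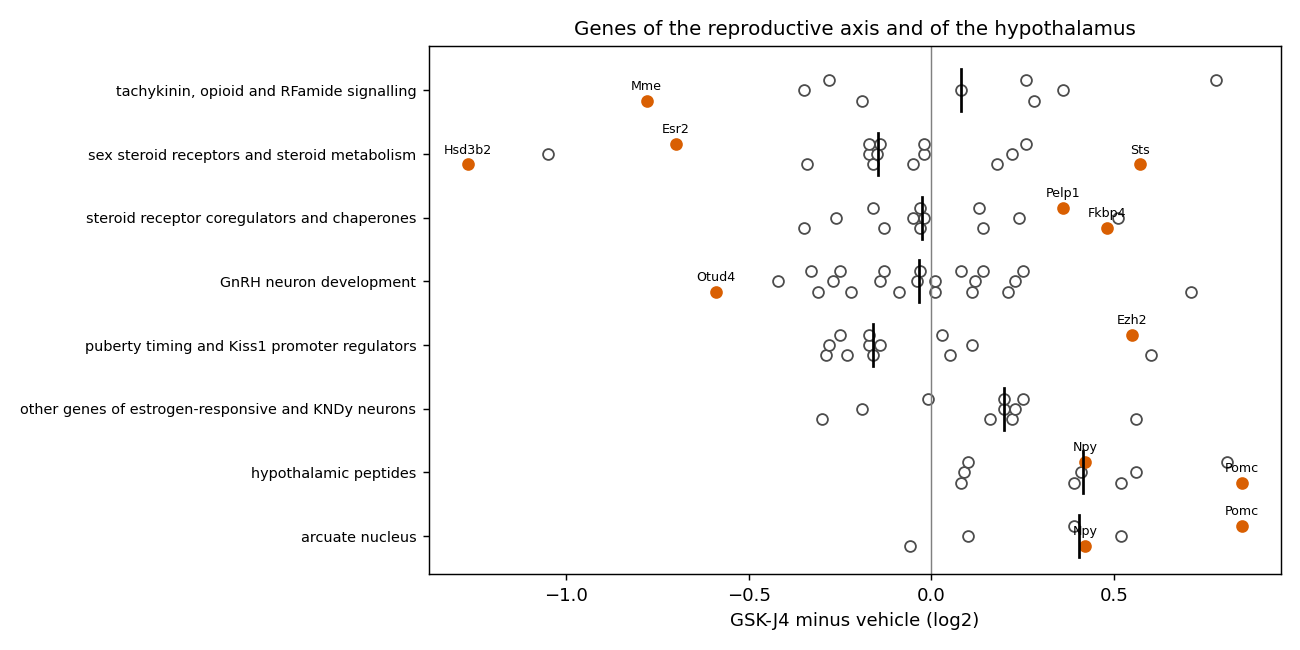
GSK-J4 minus vehicle difference of quantile normalized log2 signal (x axis) of each gene with a kept probe, by list (y axis); each circle is the difference of 2 means of 3 arrays, filled and named where the limma adjusted p was at most 0.05, and black bars are list medians. Circles lie on both sides of 0 in the 6 reproductive lists, and all 10 hypothalamic peptide genes lie above 0.

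Genes of the arcuate nucleus, where neurons with Kiss1, Tac2, Tacr3, Esr1 and Pgr lie, were set beside the members. Of 8 such markers 6 were kept, with a median difference of 0.41. Their summed level was 11.92 to 12.04 on the log2 scale in vehicle and 12.35 to 12.5 in GSK-J4, so the groups did not overlap, but the sum is carried mostly by the Npy probe. Pomc, the precursor of melanocortin peptides, was at 7.79, 8 and 8.03 in vehicle and at 8.74, 8.6 and 9.05 in GSK-J4, a rise of 0.85 ± 0.14 (limma adjusted p = 0.022). Npy, neuropeptide Y, rose by 0.42 ± 0.08 (limma adjusted p = 0.027), with a difference of 0.19 once the GC trend was removed (adjusted p = 0.16). Agrp, which arcuate neurons with Npy also express, had a difference of 0.1 ± 0.26 (limma adjusted p = 0.81). Its vehicle mean of 4.74 was near the detection limit, against 11.52 for Npy, and whether the Npy signal came from the arcuate nucleus was not tested. Tbx3 had a difference of -0.06 ± 0.14 (limma adjusted p = 0.8), and Isl1 and Otp were not flagged above background on any array. All 10 kept hypothalamic peptide genes were higher, with a median of 0.42, where 11990 of all 22117 genes were higher. This list shares Agrp, Npy, Pomc, Cartpt and Ghrh with the arcuate list, and the 2 that passed the test were again Npy and Pomc. In RNA of a whole tissue piece, fewer cells of a type and less RNA per cell cannot be told apart, and the part of the share of arcuate tissue in the values of Kiss1, Tac2 and Pgr was not tested.

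Markers of other cells and regions were mixed. Rax, a transcription factor of tanycytes, the glial cells that line the floor of the third ventricle, rose by 1.09 ± 0.23 (limma adjusted p = 0.032), with a difference of 0.35 under normexp (adjusted p = 0.07). It was flagged above background on 2 of 3 vehicle arrays and on all 3 GSK-J4 arrays, so it passed the filter through GSK-J4 alone, with vehicle values of 3.86 to 4.17 near the detection limit. Of the 4 kept tanycyte genes 3 were higher, with a median of 0.41, and Rax alone passed the test. Dio2 had a difference of 0.42 ± 0.11 (limma adjusted p = 0.051), Col23a1 one of 0.4 ± 0.3 (limma adjusted p = 0.38) and Crym one of -0.24 ± 0.12 (limma adjusted p = 0.2). Neurod6 fell, with a difference of -0.47 ± 0.1 (limma adjusted p = 0.034) that was -0.3 with 75th percentile scaling or without the GC trend (adjusted p = 0.073 and 0.1). It was 1 of 8 kept genes of the forebrain outside the hypothalamus, of which 4 were higher and 4 lower, with a median of -0.02. Drd1 had a difference of 0.72 ± 0.2 and Adora2a one of 0.4 ± 0.12 (limma adjusted p = 0.063 and 0.069). The 8 genes summed to 14.11 to 14.41 in vehicle and 13.91 to 14.2 in GSK-J4, with overlap. The summed levels of neuronal, astrocyte and oligodendrocyte genes overlapped between the groups. The 9 choroid plexus genes had a median difference of -1.34, 0 of them passed the test, and vehicle 1 was the highest array. Lhb was the single kept gene of 9 pituitary markers, with a difference of 0.18 ± 0.14 (limma adjusted p = 0.37).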

How the data were processed

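RNA was labelled with Cy3 and hybridized to 60-base probes. The authors extracted background-corrected spot intensity values with Feature Extraction 10.7.1.1 and deposited them with their flags. The log2 values used here come from a second deposited table, quantile normalized in GeneSpring per the methods. The sorted columns differed by at most 0.00424 and each correlated with its own scanner column at 0.99922 or above. Coordinates are mm9, as in the file headers, and exon annotation of that build was not used here. Probe sequences are those of the scanner files.

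A probe was kept when every array of vehicle or of GSK-J4 (n = 3 each) flagged most of its spots as well above background. Groups were compared with limma 3.58.1 in R 4.3.3 (lmFit and eBayes, two-sided, no covariate), with Benjamini-Hochberg adjustment over the 34444 kept probes. Lists count the kept probe with the highest mean. The script was tested on simulated data with 200 changed probes. Replicate numbers did not pair the arrays (correlations of deviations 0.01, 0.03 and 0.08). Named were all member probes, genes of the lists that passed (otherwise the largest and smallest difference), some further list members of known role chosen after their values were seen, and the 3 genes most like each member. Some list genes are not reported here. The members and lists were chosen with earlier results of these data known. Alternatives were other background corrections and scalings, filters, variance models, the methods' t-test and leaving out each array; values with no scaling were added after seeing the data.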

Additional observations from a re-analysis of the deposited data

How the results depend on the processing

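Over all kept probes, 2889 were called higher and 2899 lower in GSK-J4. The higher count was 5032 with 75th percentile scaling, 1486 with the GC trend removed and 1793 with no filter on dim probes. The t-test with pooled variance gave 1831 higher and 1484 lower after adjustment, and 1372 higher at the fold and unadjusted p of the methods. Limma at that fold and p gave 1651 higher. With no scaling between arrays, chosen after seeing the data, 33 were higher and 30351 lower, since the scanner signals of the GSK-J4 arrays were dimmer. Leaving out 1 array gave 1 to 2076 higher and 4 to 2481 lower, the smallest counts without a vehicle array. The share called higher, 49.9% in the deposited values, became 58% under 75th percentile scaling and 41.2% without the GC trend.

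In the 6 reproductive lists, 4 genes higher became 12 with 75th percentile scaling and 8 with normexp. They became 1 with the pooled t-test at that fold and unadjusted p and 1 with limma at the same. The 4 lower became 8 when any kept probe of a gene counted. With no scaling 0 were higher and 72 lower. Leaving out 1 array gave 0 to 3 higher and 0 to 5 lower. Genes called higher in the deposited values had lower raw signals with no scaling: Sts (-0.29), Fkbp4 (-0.23), Pelp1 (-0.49), Ezh2 (-0.45), Npy (-0.36) and Pomc (-0.14), all above the median probe at -0.88. Without the GC trend the calls of Sts (0.17), Pelp1 (0.13), Npy (0.19) and Neurod6 (-0.3) were lost. Normexp ended the call of Rax (0.35) and 75th percentile scaling that of Neurod6 (-0.3). With the replicate number as a replicate block, 0 probes and 0 list genes were called in either direction, and the median over the members stayed 0.43; the replicate numbers did not pair the arrays.

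The median over the 9 member probes was 0.03 to 0.52 when 1 array was left out, lowest without vehicle replicate 1, and -0.54 with no scaling. Tac2 was called with 75th percentile scaling (a difference of 0.5) and Pgr A_55_P2095663 with the GC trend removed (0.6), from which nothing is read since the members were chosen on this contrast. The signs of both Esr1 probes and of Pgr A_66_P104775 changed between settings. The depth of signal over background limits Kiss1 and the DNA-binding domain probe of Pgr, both near the detection limit, which lay at log2 values of 3.79 to 4.64. With 3 arrays a group, an exact permutation test could not go below 0.1.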
